A study of Rattus norvegicus with 174 samples.

Results

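A set of 7 genes of extracellular proteolysis and of the matricellular matrix was followed in rats that inhaled phosphine, a fumigant gas, or air. The list holds 8 genes: the secreted proteases Adamts1, Adamts4 and Adamts9, the matricellular proteins Ccn1, Ccn2 and Thbs1, and the tissue inhibitors Timp1 and Timp3. Members were taken by the gene symbol that the array platform gives a probe set, and by the brightest probe set over all arrays where a gene had several. That rule found 7 of the 8 among 13438 genes, and Thbs1 was not analysed here. Adamts9 had 2 probe sets and Timp3 had 3, and each other member had 1.

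The rats were adult male Sprague-Dawley animals of 300 to 400 g. Phosphine rats breathed 660 ppm with the whole body for 32.2 min. Concentration times time came to 21252 ppm x min, which is 0.91 of the LCt50, the dose of that kind lethal to the median animal. Air rats were the controls at each time. Brain, heart, kidney, liver, lung and blood were taken at 1, 3, 6 or 24 h after exposure, and 174 arrays of 33 rats were measured. Solid tissues had 4 rats per group, with 2 air rats at 6 h, and blood had 4 and 4 at 1 and 3 h, 5 and 1 at 6 h, and 2 phosphine samples with no air sample at 24 h.

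ADAMTS proteases are secreted metalloproteases that cut proteoglycans of the matrix, versican and aggrecan among them. CCN proteins are secreted into the matrix and signal through integrins, and their genes are known as rapidly inducible targets of stretch, growth factors and the SRF and YAP/TEAD transcription factors. TIMP proteins block metalloproteases, and TIMP3 stays bound to the matrix and inhibits ADAMTS proteases too. In heart, these genes are known from vessel, fibroblast and injury responses.

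All values are log2 signals, on which a difference of 1 is a doubling. A gene was called in a comparison when limma's Benjamini-Hochberg adjusted p over the 13438 genes was below 0.05, and differences are phosphine minus air ± SE of the fit. Over 23 comparisons of a tissue and time with 7 members each, 18 pairs of member and comparison rose and 0 fell. These pairs lay in heart, lung and kidney at 1 and 3 h. Of all genes 1.33% (heart at 1 h) to 11.6% (lung at 3 h) were called in those comparisons, some up and some down in each. The list was chosen with earlier results of these data known, so shares over all genes describe it and do not test it. Whether groups overlap was not counted over all genes in any comparison.

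**Figure D1:**
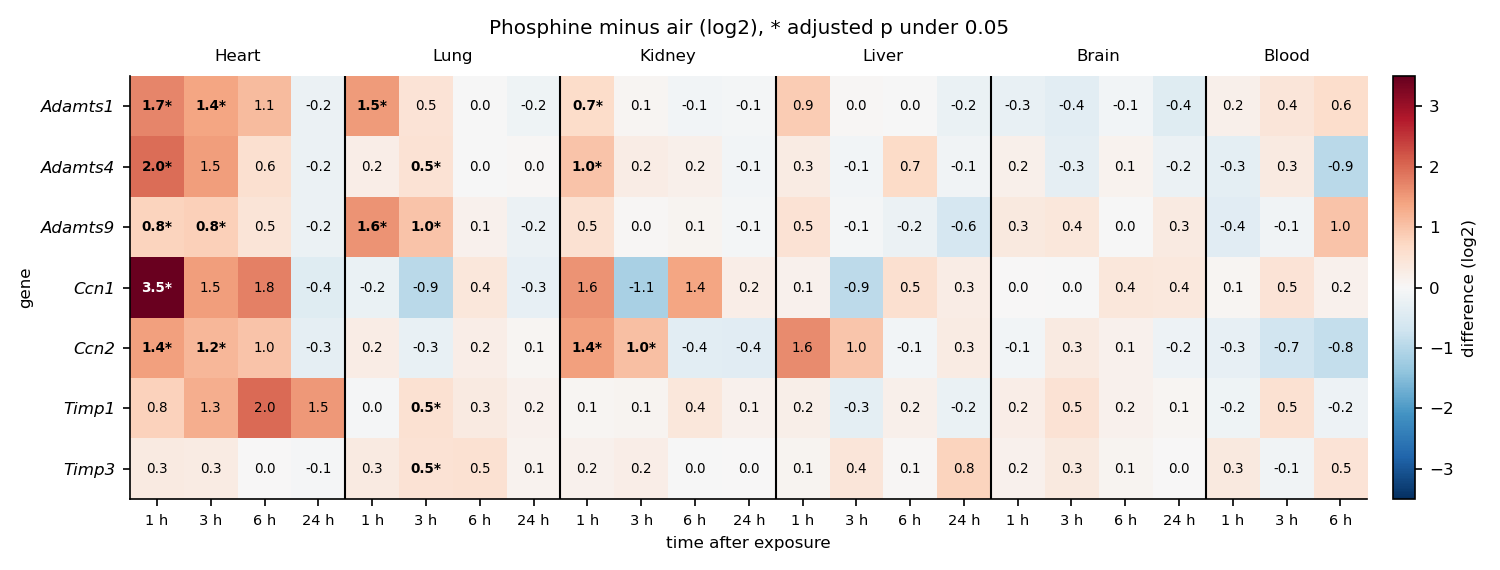
Difference of phosphine minus air on the log2 scale for 7 genes (rows) in 23 comparisons of tissue and time (columns); red is higher and blue lower in phosphine rats, and an asterisk marks an adjusted p below 0.05. Asterisks stand in heart, lung and kidney at 1 and 3 h, and the darkest cell is Ccn1 in heart at 1 h with 3.46.

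The starts of the genes are shown for the 3 members with a TATAAA match. These rose in heart at 1 h, and so did Adamts4 and Adamts9, which had no TATAAA match. Each line gives the 250 bases before the start, read 5′ to 3′ on the strand of the gene, from RefSeq on GRCr8. Capitals mark TATAAA and GGAATG, the core of the TEAD site, or its reverse complement. The stretch of Adamts1 lies at chr11:38427385-38427634, that of Ccn1 at chr2:237225690-237225939 and that of Ccn2 at chr1:22624615-22624864, each on the minus strand.
Adamts1: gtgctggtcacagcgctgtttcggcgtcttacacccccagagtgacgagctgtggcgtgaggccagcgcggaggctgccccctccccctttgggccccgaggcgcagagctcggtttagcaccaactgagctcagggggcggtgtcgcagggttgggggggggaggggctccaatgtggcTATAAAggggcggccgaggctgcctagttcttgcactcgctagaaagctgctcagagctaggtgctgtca
Ccn1: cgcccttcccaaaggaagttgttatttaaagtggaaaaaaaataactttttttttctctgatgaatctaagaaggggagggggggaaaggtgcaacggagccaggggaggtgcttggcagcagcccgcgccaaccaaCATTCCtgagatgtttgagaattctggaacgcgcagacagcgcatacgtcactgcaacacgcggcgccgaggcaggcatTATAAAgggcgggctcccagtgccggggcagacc
Ccn2: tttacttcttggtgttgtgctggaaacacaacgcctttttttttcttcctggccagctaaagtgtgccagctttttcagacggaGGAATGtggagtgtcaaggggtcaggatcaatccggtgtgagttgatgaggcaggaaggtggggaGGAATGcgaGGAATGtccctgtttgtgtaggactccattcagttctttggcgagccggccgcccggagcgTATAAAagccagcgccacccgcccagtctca
Ccn2 held 3 matches of GGAATG, Ccn1 held 1 on the other strand and Adamts1 held 0. Of the 8 listed genes, 4 had a GGAATG match in the 300 bases around the start (Ccn1, Ccn2, Thbs1 and Timp1), against 14.2% of all 33469 promoters of that length. TATAAA was matched in 3 of 8 and in 14.2% of all promoters. The GC box GGGCGG was matched in 7 of 8 and in 33.1% of all. No member had the CArG box of SRF (1.6% of all), the AP-1 site TGANTCA (7.3%) or the cAMP response element CRE (1.8%) in this window. Both strands were searched, and no match overlapped another. A match is a run of letters and says nothing of binding.

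In air rats the members differed in where they were high. Adamts4 was a brain gene, with 6.63 ± 0.35 (SD, n = 14) in brain and means of 3.29 to 3.92 in the other tissues, and the brain range did not overlap that of liver, the next. Those other means lie below the median probe set of every array (4.16 to 4.64), and no detection floor was set. Adamts1 was highest in lung (8.52 ± 0.30), then heart, liver and kidney (7.50, 7.45 and 7.29, overlapping ranges), and lowest in brain (5.08) and blood (3.87 ± 0.51, n = 9). Adamts9 followed from lung (7.32 ± 0.27) through heart (6.68), kidney (6.16) and liver (5.83) to blood (3.92) and brain (3.82), and neighbouring ranges overlapped other than liver and blood. Ccn2 was high in lung (11.07 ± 0.31), close in heart and kidney (9.84 and 9.79, overlapping), lower in brain (7.86) and liver (6.02 ± 0.84), and 3.68 in blood.

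Timp3 had like levels in lung and kidney (11.29 ± 0.20 and 11.21 ± 0.10, overlapping) and fell off through heart (9.85) and brain (8.75) to liver (6.86) and blood (6.57). Timp1 ran from lung (8.68 ± 0.25) and heart (7.65 ± 0.18), whose ranges did not overlap, to kidney (6.71), liver (6.55), brain (5.79) and blood (4.48). Ccn1 had the largest SD of the members over air rats in lung, kidney and heart, and other members exceeded it in liver, brain and blood. Its SD over air rats was 1.07 in lung (mean 6.46, highest rat 9.75), 1.02 in kidney (6.39, highest 8.03) and 0.79 in heart (5.68, highest 8.10), against 0.23 in brain, where the mean was 3.28. All neighbouring ranges of Ccn1 overlapped.

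**Figure D2:**
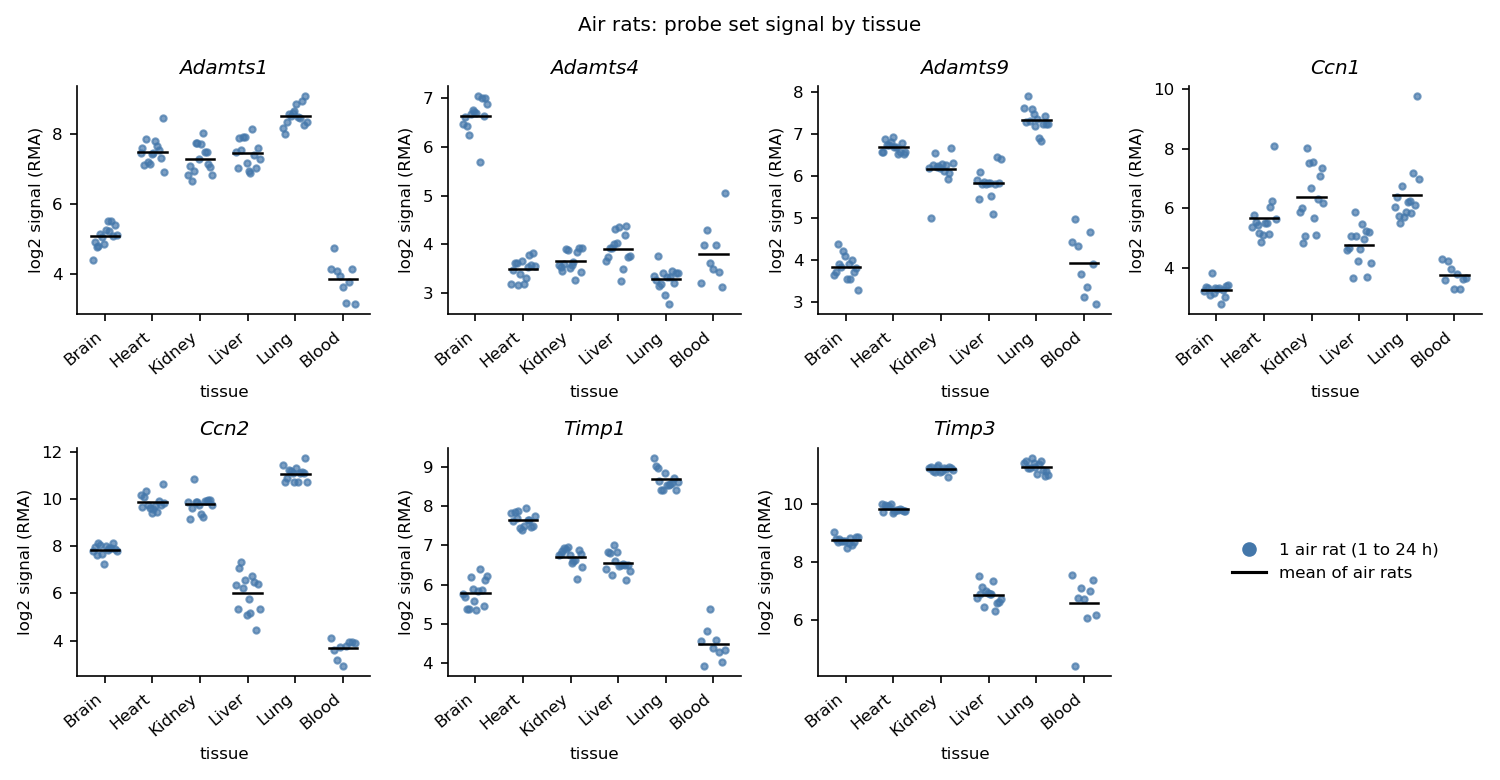
Log2 signal of 7 genes in air rats by tissue (x axis), 1 point per rat over all times and a line at the mean; 14 rats in each solid tissue and 9 in blood. Adamts4 stands at 6.63 in brain and below 4 on average elsewhere, and Ccn1 spreads most, up to 9.75 in lung.

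The air groups of the 4 times were compared next. Adamts1 in kidney was called over the 4 air groups by limma's moderated F (adjusted p = 0.0294), with means of 6.88 at 1 h, 7.62 at 3 h, 7.77 at 6 h and 7.13 at 24 h. That was 1 of 7 members where 0.64% of genes were called. In brain, heart, liver and lung 0 of 7 were called by this test, beside 0%, 0.104%, 0.246% and 1.67% of genes. An unadjusted p under 0.05 was seen for 2, 0, 0 and 3 members, beside 10.2%, 7.81%, 7.14% and 18.3% of genes.

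Heart at 1 h had the most members called. Of the 7 members 5 rose (Adamts1, Adamts4, Adamts9, Ccn1 and Ccn2), where 1.33% of genes were called in either direction. All 7 members were higher, as were 49.7% of all genes. For no member did the phosphine and air rats overlap, and overlap was not counted over all genes. The median difference of the 7 was 1.43, against -0.001 over all genes. As the list was chosen with earlier results of these data known, this contrast is a description and no test.

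Among the proteases, Adamts1 was 8.86, 9.19, 9.36 and 9.50 in the 4 phosphine hearts at 1 h and 7.11, 7.46, 7.61 and 7.86 in the 4 air hearts. Every phosphine heart was above every air heart, a difference of 1.72 ± 0.29 or 3.29-fold (adjusted p = 0.00155). Adamts4, an aggrecanase that is low in air hearts, was 4.45, 4.96, 6.03 and 6.29 against 3.19, 3.48, 3.62 and 3.63, a difference of 1.95 ± 0.45 or 3.87-fold (adjusted p = 0.0279). Adamts9 was 6.88, 7.17, 7.80 and 8.05 against 6.56, 6.57, 6.73 and 6.87, with the lowest phosphine heart barely above the highest air heart (0.79 ± 0.17, adjusted p = 0.0195). Its other probe set, dimmer at a mean of 3.14 over all arrays against 5.79, differed by 0.20 in these hearts (adjusted p = 0.867).

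The matricellular genes Ccn1 and Ccn2 had different baselines. Ccn1, an immediate early gene, was 7.93, 8.21, 9.73 and 10.12 in phosphine hearts at 1 h and 5.38, 5.44, 5.54 and 5.78 in air hearts. This was the largest difference of any member in any comparison, 3.46 ± 0.75 or 11-fold (adjusted p = 0.0187). Ccn2, also known as CTGF and already strong in air hearts, was 11.27, 11.38, 11.47 and 11.81 against 9.67, 10.08, 10.15 and 10.33 (1.43 ± 0.28, adjusted p = 0.00651). The inhibitors Timp1 (0.81 ± 0.37, adjusted p = 0.415) and Timp3 (0.32 ± 0.15, adjusted p = 0.403) did not pass the test.

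Within the phosphine group at 1 h, Rat712 and Rat719 were the higher pair for Adamts1, Adamts4, Adamts9, Ccn1, Ccn2, Timp1 and Timp3, and Rat710 and Rat716 the lower pair. Of the 5 calls 3 depended on single rats. Without Rat712 or Rat719 neither Adamts4, Adamts9 nor Ccn1 was called. Adamts4 was also lost without air Rat720, Rat721 or Rat726, and Adamts9 without air Rat720 or Rat721. Leaving out each of the 8 rats in turn gave 1.67 to 2.28 for Adamts4 (adjusted p up to 0.143), 0.60 to 0.99 for Adamts9 (up to 0.11) and 3.09 to 3.82 for Ccn1 (up to 0.0926). Adamts1 and Ccn2 were called in all 8 of these fits. With these 2 groups alone in the fit, Adamts4 (adjusted p = 0.0849) and Adamts9 (adjusted p = 0.306) were lost. The endothelium marker list (9 of 10 genes measured) averaged 7.95 to 8.06 in phosphine hearts and 7.66 to 7.89 in air hearts at 1 h, without overlap, and its part in the result was not tested. On whole tissue, more cells of a type and more RNA per cell cannot be told apart.

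**Figure D3:**
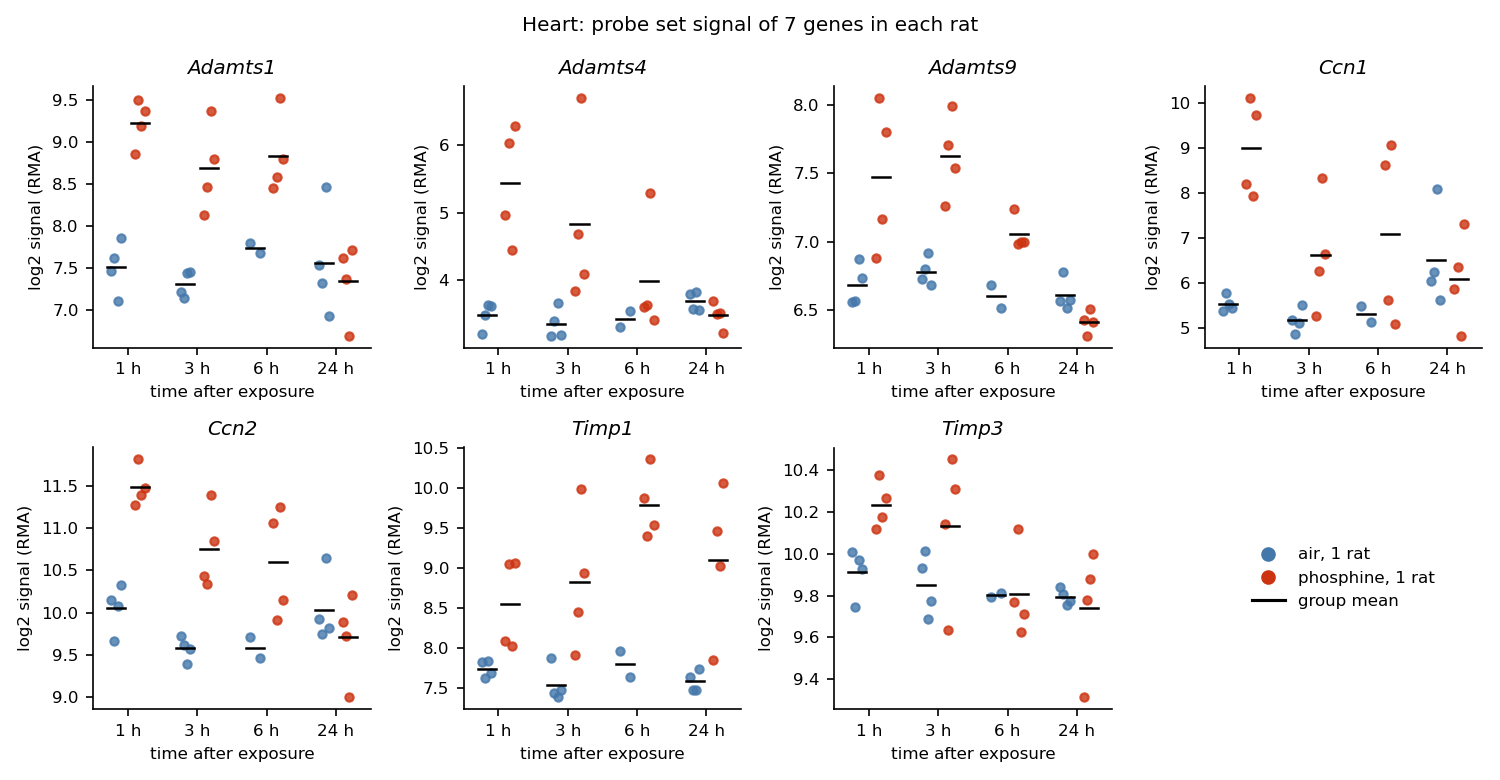
Log2 signal in heart for 7 genes, 1 point per rat (blue air, red phosphine) with a line at the group mean, by hours after exposure; 4 rats per group, 2 for air at 6 h. Red points lie above all blue points at 1 h in every panel, and by 24 h this holds in the panel of Timp1 alone.

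At 3 h in heart 3 members rose, Adamts1, Adamts9 and Ccn2, beside 3.33% of genes. Adamts1 was 8.13, 8.46, 8.80 and 9.37 in phosphine hearts and 7.14, 7.22, 7.44 and 7.45 in air hearts, again without overlap (1.38 ± 0.29, adjusted p = 0.00816). Adamts9 was 7.26, 7.54, 7.70 and 7.99 against 6.68, 6.72, 6.80 and 6.92 (0.84 ± 0.17, adjusted p = 0.0075). Its other probe set differed by 0.14 (adjusted p = 0.782). Ccn2 was 10.34, 10.43, 10.85 and 11.39 against 9.40, 9.57, 9.62 and 9.73 (1.17 ± 0.28, adjusted p = 0.02), and was lost without Rat730, Rat731, Rat738 or Rat739 (0.96 to 1.31 over the 8 fits, adjusted p up to 0.0814).

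Ccn1 in heart at 3 h was 5.27, 6.28, 6.66 and 8.34, against 4.88, 5.11, 5.19 and 5.52, so that the groups overlapped (1.46 ± 0.75, adjusted p = 0.312). Adamts4 was 3.84, 4.09, 4.68 and 6.70 against 3.18, 3.19, 3.40 and 3.65 (1.47 ± 0.45, adjusted p = 0.0758). Rat730 was the highest phosphine heart at 3 h for all 7 members. One phosphine heart at 3 h, that of Rat729, carried hepatocyte transcripts 8.34 log2 above the heart median. Without the arrays that carried transcripts of another organ 5 members were called at 3 h, with Timp1 (1.40, adjusted p = 0.0262) and Timp3 (0.45, adjusted p = 0.03) added. The macrophage list (8 of 9 genes) averaged 6.89 to 7.70 in phosphine and 6.59 to 6.83 in air hearts at 3 h, and its part was not tested. Without Rat728, the lowest phosphine heart at 3 h for Adamts1, Adamts4, Adamts9, Ccn1 and Timp1, 5 members were called, with Adamts4 (1.80, adjusted p = 0.0184) and Timp1 (1.58, adjusted p = 0.0105) added. With the 2 groups alone in the fit 0 members were called at 3 h (adjusted p = 0.101 for Adamts1).

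Timp1, the inducible inhibitor, was higher in phosphine than in air hearts at each time. A difference of its heart effect between times was not called by limma's F (adjusted p = 0.73). Its course was not tested against that of other members. Its phosphine values were 8.03, 8.09, 9.05 and 9.07 at 1 h, 7.92, 8.46, 8.94 and 9.99 at 3 h, 9.40, 9.54, 9.87 and 10.36 at 6 h, and 7.86, 9.03, 9.47 and 10.06 at 24 h. Air hearts stayed between 7.39 and 7.96 over all times, and at each time every phosphine heart was above every air heart of that time. The differences were 0.81, 1.28, 1.99 ± 0.46 and 1.51 ± 0.37, and with adjusted p of 0.415, 0.0578, 0.0536 and 0.136 none passed the test in the heart fit. At 6 h it was called without Rat760 (2.12, adjusted p = 0.0485) and without the arrays of other organs (adjusted p = 0.0126). None of those arrays was a 6 h heart. It was not called at 6 h without Rat758, Rat761 or Rat789 (adjusted p up to 0.165) or with the 2 groups alone (0.124). Array weights (adjusted p = 8.56e-04), air of all times pooled (2.41e-05) and dim genes left out (0.0301) gave a call at 6 h. Quantile normalization (0.0671), median centring of arrays (0.0676) and limma with a variance trend (0.069) did not. With 1 air rat left at 6 h the difference was 2.15 (without Rat762) or 1.83 (without Rat763). At 24 h it was called without Rat741 (1.93, adjusted p = 0.00699), whose heart array carried hepatocyte transcripts 7.99 log2 above the heart median. Rat741 was the lowest of the 24 h group. The highest, Rat749, had a heart array with alveolar epithelium transcripts 6.29 above the heart median, and without Rat749 the difference at 24 h was 1.195 (adjusted p = 0.504). Without both arrays it was 1.66 and was not called (adjusted p = 0.0728). Array weights (adjusted p = 0.00143) and air of all times pooled (0.00914) gave a call at 24 h. Dim genes left out (0.0872), quantile normalization (0.181), median centring (0.238) and the 2 groups alone (0.3) did not. The macrophage list averaged 6.98 to 7.35 in phosphine and 6.57 to 6.90 in air hearts at 24 h and the endothelium list 7.89 to 8.03 against 7.67 to 7.82 at 6 h, and their part was not tested.

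At 6 h 0 of 7 were called in heart (0.35% of genes). An unadjusted p under 0.05 was found for 4 members and 9.37% of genes. Ccn1 at 6 h split into Rat758 and Rat761 at 8.62 and 9.08 and Rat789 and Rat760 at 5.09 and 5.62, against 5.15 and 5.50 in air. Adamts1 was 8.45, 8.58, 8.79 and 9.52 against 7.67 and 7.80 (1.10 ± 0.35, adjusted p = 0.208). Ccn2 was 9.91 to 11.25 against 9.46 and 9.71 and Adamts9 6.98 to 7.24 against 6.51 and 6.68. Adamts1, Adamts9, Ccn2 and Timp1 thus had groups that did not overlap at 6 h, with only 2 air rats. Overlap was not counted over all genes. At 24 h 0 of 7 were called (0.0819% of genes), and 1 member and 7.61% of genes had an unadjusted p under 0.05. There 6 of 7 members had a difference below 0, and 47.8% of all genes had one above 0. By limma's F over the 4 times 0 of 7 heart effects were called (0.424% of genes). Its unadjusted p was under 0.05 for 5 members and 11% of genes. Its adjusted p was 0.073 for Adamts1, 0.0966 for Ccn2, 0.105 for Adamts9 and 0.73 for Timp1. The 3 h effect minus the 1 h effect was called by limma for 0 members in heart (0.0446% of genes). At an unadjusted p under 0.05 were 0 members and 9.55% of genes.

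Lung had 2 members called at 1 h, Adamts1 and Adamts9, beside 5.8% of genes. Adamts9 was 8.53, 8.98, 9.36 and 9.54 in phosphine lungs and 7.28, 7.30, 7.61 and 7.89 in air lungs, with no overlap (1.58 ± 0.18 or 3-fold, adjusted p = 3.23e-06). Adamts1 was 9.40, 9.47, 9.83 and 10.35 against 7.99, 8.18, 8.33 and 8.57 (1.5 ± 0.23 or 2.82-fold, adjusted p = 1.42e-04). Both calls held in each of the 8 fits without a rat. The other Adamts9 probe set went slightly the other way in lung (-0.19 at 1 h, adjusted p = 0.427, and -0.003 at 3 h, adjusted p = 0.996), so the Adamts9 result rests on 1 of 2 probe sets. Ccn1 and Ccn2, which rose in heart at 1 h, differed by -0.24 ± 0.58 and 0.25 ± 0.19 in lung (adjusted p = 0.896 and 0.532), with overlapping groups. The smooth muscle list (8 of 8 genes) averaged 7.43 to 7.61 in phosphine and 7.33 to 7.41 in air lungs at 1 h, and its part was not tested.

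At 3 h lung had 4 members called, Adamts4, Adamts9, Timp1 and Timp3, where 11.6% of genes were called. Adamts9 was 8.15, 8.23, 8.55 and 8.69 against 7.19, 7.35, 7.46 and 7.60 (1.00 ± 0.18, adjusted p = 5.2e-04). Timp1 was 8.95, 9.08, 9.13 and 9.20 against 8.42, 8.42, 8.53 and 8.85 (0.54 ± 0.13, adjusted p = 0.00753). Timp3, the matrix-bound inhibitor, was 11.76, 11.85, 11.89 and 11.90 against 11.06, 11.29, 11.42 and 11.61 (0.50 ± 0.12, adjusted p = 0.00642). Both inhibitors had groups that did not overlap, and overlap was not counted over all genes. The second Timp3 probe set differed by 0.38 (adjusted p = 0.0388).

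Adamts4 in lung at 3 h was 3.39, 3.69, 3.91 and 3.95 against 2.97, 3.19, 3.34 and 3.42, with groups that overlapped (0.50 ± 0.15, adjusted p = 0.0275). All of these values are dim, below the median probe set of every array (4.16 to 4.64). The call was lost without Rat729, Rat730, Rat731, Rat732 or Rat738 (0.42 to 0.62, adjusted p up to 0.0929) and without the 2 lung arrays at 3 h that carried skeletal muscle transcripts (Rat729 and air Rat733, adjusted p = 0.078). In lung at 3 h the neutrophil list (7 of 8 genes) averaged 6.38 to 6.77 in phosphine and 5.42 to 6.02 in air, the macrophage list 7.27 to 7.39 and 6.91 to 7.24, the erythroid list (4 of 7) 5.61 to 6.02 and 5.10 to 5.58, and the mesothelium list (4 of 6) 7.19 to 7.48 and 7.0 to 7.17. Their part in these results was not tested.

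At 6 h 0 of 7 members were called (0.0967% of genes), and 1 member and 8.8% of genes had an unadjusted p under 0.05. Timp3 was 11.73, 11.91, 12.11 and 12.21 against 11.40 and 11.49 (0.55 ± 0.15, adjusted p = 0.149). At 24 h 0 were called (0.00744% of genes) and 0 had an unadjusted p under 0.05, beside 3.16% of genes. Adamts1 (adjusted p = 0.00781) and Adamts9 (adjusted p = 5.13e-04) had effects that differed between the 4 times by limma's F, 2 of 7 members where 6.38% of genes were called. Both were largest at 1 h and at -0.16 and -0.19 by 24 h. The change from 1 to 3 h alone was called for 0 of 7 (3.28% of genes). Its unadjusted p was under 0.05 for 3 members and 17.6% of genes. The change was -1.03 ± 0.32 for Adamts1 (adjusted p = 0.0806) and 0.58 ± 0.18 for Timp1 (adjusted p = 0.0828). Without air Rat727 or Rat738 that of Timp1 was called (0.69, adjusted p = 0.0343, and 0.68, adjusted p = 0.0389).

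In kidney the leading member was Ccn2. It was 10.97, 11.09, 11.33 and 11.78 in phosphine kidneys at 1 h and 9.16, 9.59, 9.88 and 10.84 in air kidneys (1.42 ± 0.24 or 2.68-fold, adjusted p = 0.00107). At 3 h it was 10.38, 10.63, 10.96 and 11.06 against 9.38, 9.75, 9.88 and 9.88 (1.04 ± 0.24, adjusted p = 0.00849), without overlap at either time. Its effect differed between the 4 times (limma's F, adjusted p = 0.00582), with -0.37 ± 0.30 at 6 h and -0.40 ± 0.24 at 24 h. That was 1 of 7 members, where 1.75% of genes were called. With the 2 groups alone in the fit the calls at 1 h of Ccn2 (adjusted p = 0.141), Adamts4 (0.219) and Adamts1 (0.0724) were lost. That of Ccn2 held without each rat.

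In all 3 members rose in kidney at 1 h, Adamts1, Adamts4 and Ccn2, where 3.12% of genes were called. Adamts4 was 3.93, 4.12, 4.65 and 5.50 against 3.46, 3.53, 3.58 and 3.61 (1.00 ± 0.22, adjusted p = 0.0105), and Rat719 was again the highest, as in heart and lung for other members. Adamts1 was 7.34, 7.52, 7.56 and 7.72 against 6.65, 6.84, 6.94 and 7.10 (0.65 ± 0.16, adjusted p = 0.0258). Its phosphine values at 1 h were below the mean of air kidneys at 3 h (7.62) other than Rat716, and with the air rats of all times pooled the call was lost (adjusted p = 0.585). It was also lost without Rat712, Rat716, Rat719, Rat720 or Rat726 (0.57 to 0.73, adjusted p up to 0.0874) and without the arrays of other organs, among them air Rat720 with hepatocyte transcripts 4.83 above the kidney median (adjusted p = 0.0612).

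Ccn1 in kidney was variable in both groups. At 1 h it was 6.48, 6.69, 7.28 and 7.70 against 4.84, 5.09, 5.90 and 6.03 (1.58 ± 0.59, adjusted p = 0.155). At 3 h air kidneys were 6.68, 7.53, 7.55 and 8.03 and phosphine kidneys 5.29, 5.73, 6.23 and 7.98 (-1.14 ± 0.59, adjusted p = 0.294). The 3 h minus 1 h difference of -2.72 ± 0.84 did not pass the test (adjusted p = 0.17), and 0 of 7 members passed it in kidney (0.231% of genes). Its unadjusted p was under 0.05 for 3 members and 11.4% of genes. At 3 h Ccn2 was the 1 member called, beside 6.39% of genes. At 6 h (0.35% of genes) and 24 h (0%) 0 were called. At an unadjusted p under 0.05 were 1 and 0 members, beside 10.1% and 5.5% of genes. The neutrophil list averaged 3.41 to 3.47 in phosphine and 3.06 to 3.20 in air kidneys at 3 h, and its part was not tested.

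**Figure D4:**
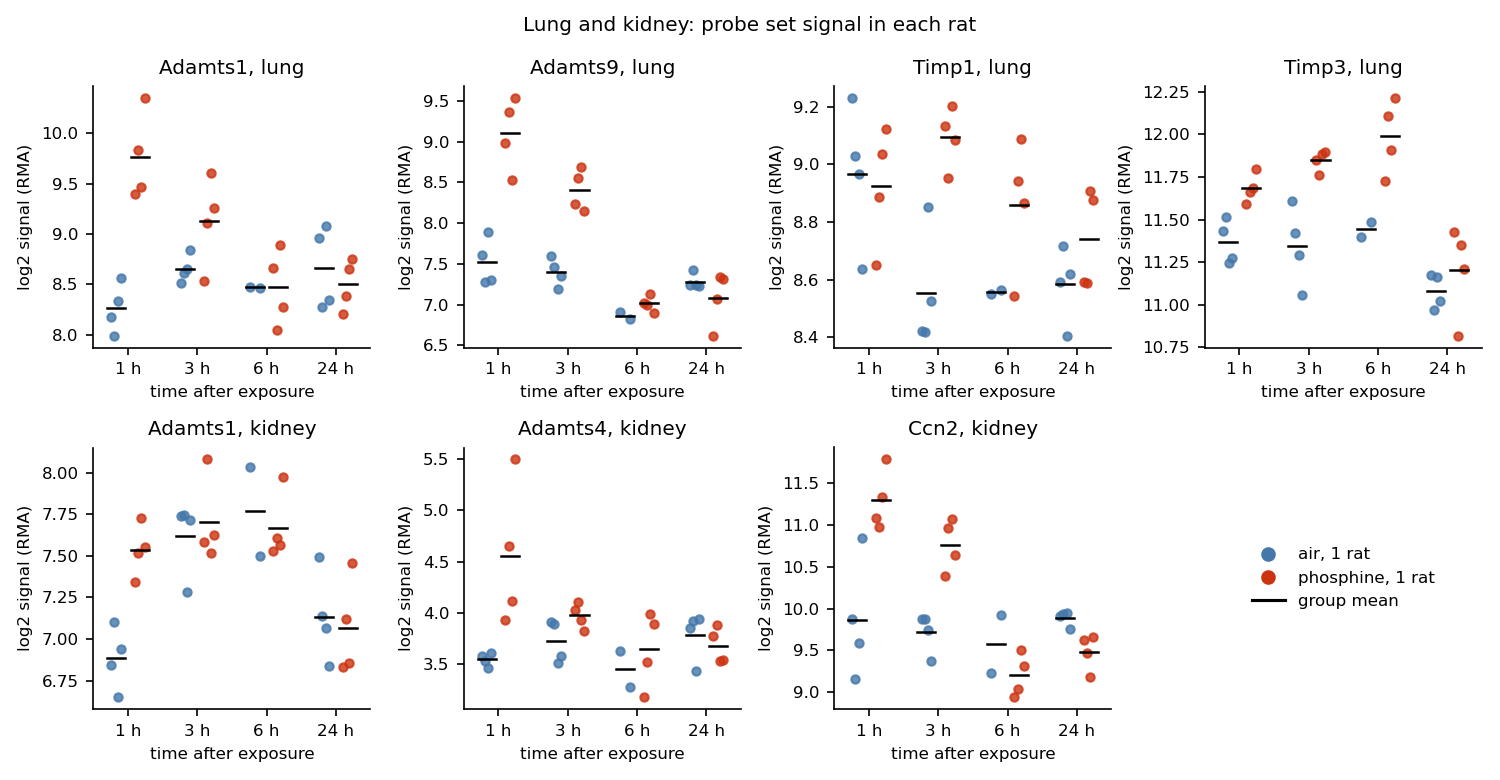
Log2 signal of 4 genes in lung (top) and 3 in kidney (bottom), 1 point per rat (blue air, red phosphine) with a line at the group mean, by hours after exposure; 4 rats per group, 2 for air at 6 h. Adamts9 in lung falls from 8.53 to 9.54 in phosphine rats at 1 h to 6.62 to 7.34 at 24 h, and Ccn2 in kidney is above air at 1 and 3 h.

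Liver, brain and blood had 0 members called by limma at any time. In liver at 1 h 0.335% of genes were called, and 2 members and 6.76% of genes had an unadjusted p under 0.05. There Ccn2 was 7.85, 7.90, 8.11 and 8.84 against 5.35, 6.36, 7.06 and 7.33. The groups did not overlap, yet the spread of air livers was wide (1.65 ± 0.55, 95% interval 0.51 to 2.79, adjusted p = 0.336). Adamts1 was 8.14, 8.38, 8.45 and 8.59 against 7.02, 7.49, 7.55 and 7.90 (0.90 ± 0.28, adjusted p = 0.279). Both were called with the air livers of all times pooled as control (2.15, adjusted p = 0.00563, and 0.94, adjusted p = 0.0159). At 3, 6 and 24 h liver had 3.85%, 0.223% and 0% of genes called. Unadjusted p was under 0.05 for 0, 0 and 2 members, beside 15.6%, 9.21% and 7.14% of genes. Timp3 at 24 h was 9.26 in Rat741, whose liver array carried kidney tubule transcripts, and 6.30 to 7.10 in the other 3 phosphine livers.

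In brain, the tissue where Adamts4 was highest in air rats, this gene was 6.07, 6.39, 6.54 and 6.55 at 3 h against 6.68, 6.68, 6.70 and 6.75, all phosphine brains below all air brains (-0.32 ± 0.17, adjusted p = 0.626). Timp3 at 3 h was 8.85, 8.93, 9.07 and 9.16 against 8.48, 8.72, 8.72 and 8.74 (0.34 ± 0.10, adjusted p = 0.225). In brain at 3 h the endothelium list (9 of 10 genes) averaged 5.30 to 5.55 in phosphine and 5.70 to 5.90 in air rats, the erythroid list (4 of 7) 3.65 to 4.07 and 3.42 to 3.59, and the neutrophil list (7 of 8) 3.03 to 3.57 and 2.80 to 2.99, each without overlap, and their part was not tested. Adamts1 at 24 h was 4.52, 4.90, 4.93 and 5.04 against 5.09, 5.12, 5.40 and 5.52 (-0.43 ± 0.15, adjusted p = 1). The shares of genes called in brain were 0.149%, 0.506%, 0% and 0% at 1, 3, 6 and 24 h. Unadjusted p was under 0.05 for 1, 5, 1 and 2 members, beside 11%, 8.65%, 5.64% and 3.79% of genes. Effects over the 4 times were called for 0 members in brain (0.0893% of genes) and liver (0.476%). Here 0 and 2 members had an unadjusted p under 0.05, beside 8.95% and 10.2% of genes. The 3 h effect minus the 1 h effect was called for 0 in brain (0%) and liver (0.0298%). Here 1 member each had an unadjusted p under 0.05, beside 11% and 6.71% of genes.

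Blood had 0.00744%, 6.6% and 0.0521% of genes called at 1, 3 and 6 h. An unadjusted p under 0.05 was seen for 0 members, beside 7.72%, 22.4% and 10.2% of genes. Mean levels of the members in air blood were 3.68 to 6.57, and the 6 h comparison rests on 1 air sample. In the 2 phosphine samples at 24 h Timp3 was 6.47 and 7.70 and Timp1 4.85 and 5.13.

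The effects were then compared between the 5 solid tissues in 1 fit of all their arrays. This fit gives each gene 1 spread over the 5 tissues, and unequal spread between tissues was not modelled. At 1 h 5 of 7 members had effects that differed between tissues by limma's F, beside 3.27% of genes. They were Adamts1 (adjusted p = 5.95e-05), Ccn1 (0.0027), Adamts4 (0.00575), Ccn2 (0.0152) and Adamts9 (0.0192). At 3 h 4 of 7 differed (14.4% of genes), Adamts1 (adjusted p = 5.82e-04), Timp1 (0.00429), Adamts4 (0.006) and Adamts9 (0.00996). Timp1 was the 1 member whose effect differed at 6 h (adjusted p = 0.0114, 1.35% of genes) and at 24 h (adjusted p = 0.00713, 0.625% of genes). At 1 h Adamts4 was lost without Rat712 or Rat719 (adjusted p up to 0.124), Adamts9 without Rat712, Rat719 or Rat727 (up to 0.183) and Ccn2 without Rat719, Rat720 or Rat721 (up to 0.154). At 3 h Adamts4, Adamts9 and Timp1 were lost without Rat730 (0.191, 0.215 and 0.242). Timp1 was lost at 6 h without Rat761, Rat762 or Rat763 (up to 0.628) and at 24 h without Rat749 or Rat750 (up to 0.086).

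Heart stood above the mean of brain, kidney, liver and lung for several members. At 1 h the heart effect was larger for Ccn1 by 3.09 ± 0.64 (adjusted p = 0.00166), Adamts4 by 1.52 ± 0.33 (adjusted p = 0.00294) and Adamts1 by 1.02 ± 0.27 (adjusted p = 0.023), 3 of 7 members beside 1.34% of genes. At 3 h it was larger for Ccn1 by 2.21 ± 0.64 (adjusted p = 0.025), Adamts4 by 1.39 ± 0.33 (adjusted p = 0.00359), Adamts1 by 1.32 ± 0.27 (adjusted p = 4.71e-04) and Timp1 by 1.07 ± 0.28 (adjusted p = 0.00833), 4 of 7 beside 5.18%. At 6 h (1.27% of genes) it was larger for Timp1 by 1.74 ± 0.34 (adjusted p = 5.35e-04) and Adamts1 by 1.15 ± 0.33 (adjusted p = 0.0471), and at 24 h (1.57%) for Timp1 by 1.48 ± 0.28 (adjusted p = 3.08e-04). Ccn2 (0.62 at 1 h) and Adamts9 (0.05 at 1 h), which also rose in kidney or lung, were not called in this contrast. The spread of a gene was shared over the tissues here, so variable heart values can get too small an SE. For Timp1 at 24 h the SE of the contrast was 0.28. That of its heart effect alone was 0.37 in the heart fit, where it was not called (adjusted p = 0.136).

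Each rat gave several tissues, so the heart contrast was repeated on paired values within each rat, a replicate block. On heart minus the mean of the other 4 tissues of the rat, Ccn1 at 1 h (adjusted p = 0.0305) and Adamts1 at 3 h (adjusted p = 0.0156) were called. The other 8 results lost their call, with adjusted p of 0.0905 for Adamts1 and 0.189 for Adamts4 at 1 h, 0.0927 for Ccn1, 0.149 for Adamts4 and 0.185 for Timp1 at 3 h, 0.17 for Adamts1 and 0.126 for Timp1 at 6 h, and 0.147 for Timp1 at 24 h. The paired fit also took its spread from these differences and not from all tissues. Whether the pairing or the spread cost the calls was not tested. With the rat as a random replicate block (consensus correlation 0.027) all 10 were called. Single rats mattered too. Without Rat730 the 3 h contrasts fell to 0.72 for Adamts4 (adjusted p = 0.147), 1.61 for Ccn1 (0.136) and 0.62 for Timp1 (0.15), and Ccn1 was also lost without air Rat732 or Rat733. Adamts1 was lost at 1 h without Rat712, Rat719 or Rat726 (up to 0.174) and at 6 h without any of 5 of the 6 rats (up to 0.55), the exception being Rat758. Timp1 at 6 h was lost without air Rat763 (0.184).

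Other genes of these families were taken from lists, which were chosen with earlier results of these data known. Of all genes 1.33% and 3.33% were called in heart at 1 and 3 h, and 3.12% and 6.39% in kidney. In lung 5.8% and 11.6% were called at 1 and 3 h, and in liver and blood at 3 h 3.85% and 6.6%. Of 12 measured Adamts and Adamtsl genes that are no members, 2 rose at 3 h in heart, Adamts15 (0.96 ± 0.26, adjusted p = 0.0388) and Adamtsl2 (0.82 ± 0.20, adjusted p = 0.0242), and 0 changed at 1 h. Adamtsl2, a secreted relative without protease activity, also rose in lung at 1 h (1.01 ± 0.18, adjusted p = 8.04e-04) and 3 h (1.30 ± 0.18, adjusted p = 3e-05) and in kidney at 3 h (1.12 ± 0.17, adjusted p = 1.28e-04). In lung at 3 h 2 rose and 1 fell, the aggrecanase Adamts5 by -1.0 ± 0.20 (adjusted p = 0.00175), while Adamts15 rose by 0.56 ± 0.13 (adjusted p = 0.00703). Adamts10 fell in lung at 1 h (-0.68 ± 0.20, adjusted p = 0.0384) and Adamts12 rose in kidney at 1 h (0.60 ± 0.16, adjusted p = 0.0419).

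Of 10 measured CCN, thrombospondin and TIMP genes outside the members, 0 changed in heart at any time. Ccn3, a CCN relative, rose in kidney at 1 h (0.77 ± 0.16, adjusted p = 0.0085) and in lung at 1 h (0.55 ± 0.15, adjusted p = 0.0294) and 3 h (1.23 ± 0.15, adjusted p = 7.56e-06). Ccn5 fell in lung at 1 h (-0.60 ± 0.17, adjusted p = 0.0371) and 3 h (-0.62 ± 0.17, adjusted p = 0.0189), Timp2 fell there at 1 h (-0.26 ± 0.06, adjusted p = 0.0148), and Timp4 rose at 3 h (0.48 ± 0.16, adjusted p = 0.0422). Thbs2 rose in kidney at 1 h (0.41 ± 0.11, adjusted p = 0.0328).

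Among 12 other matricellular genes, 1 rose in heart at each of 3, 6 and 24 h, where 3.33%, 0.35% and 0.0819% of genes were called. Angptl4, an inhibitor of lipoprotein lipase, rose by 2.87 ± 0.57 at 3 h (adjusted p = 0.0054) and 3.07 ± 0.69 at 6 h (adjusted p = 0.0486), and Spp1, osteopontin, by 3.06 ± 0.48 at 24 h (adjusted p = 0.00431). Angptl4 rose in lung at 3 h too (1.89 ± 0.43, adjusted p = 0.00465), Postn in kidney at 1 h (1.03 ± 0.27, adjusted p = 0.0323) and Spp1 in blood at 3 h (1.44 ± 0.41, adjusted p = 0.0392). Of 17 proteoglycan substrates and partners 0 were called in heart. Lum rose in kidney at 1 h (1.25 ± 0.30, adjusted p = 0.0209), Cd44, the hyaluronan receptor, in lung at 1 h (0.31 ± 0.10, adjusted p = 0.0496) and Hapln3 in blood at 3 h (1.23 ± 0.35, adjusted p = 0.0378).

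Among 15 receptors of matricellular proteins, Sdc4, a heparan sulfate syndecan, rose at 3 h in heart (1.92 ± 0.37, adjusted p = 0.00482), liver (1.13 ± 0.18, adjusted p = 4.03e-04), lung (0.43 ± 0.12, adjusted p = 0.0237) and kidney (0.33 ± 0.08, adjusted p = 0.0126). The integrin subunit Itgb3 rose in kidney at 1 h (0.90 ± 0.16, adjusted p = 0.00147) and 3 h (0.86 ± 0.16, adjusted p = 0.00109), with Itgav, its partner, at 3 h (0.81 ± 0.19, adjusted p = 0.00878). Itga6 fell at 3 h in heart (-0.89 ± 0.16, adjusted p = 0.0036) and lung (-0.54 ± 0.15, adjusted p = 0.0168). Kdr, a VEGF receptor, fell in lung at 1 h (-0.54 ± 0.10, adjusted p = 0.00142) and 3 h (-0.94 ± 0.10, adjusted p = 1.94e-06).

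Of 22 matrix metalloproteinases and ADAM genes, 1 rose and 1 fell in heart at 3 h, where 3.33% of genes were called. These were Adam15 (0.82 ± 0.20, adjusted p = 0.0241) and Mmp11 (-1.36 ± 0.28, adjusted p = 0.00723). In lung, Mmp8, the neutrophil collagenase, rose at 1 h (0.86 ± 0.20, adjusted p = 0.00964) and 3 h (1.25 ± 0.20, adjusted p = 2.05e-04). Mmp16 (-0.73 ± 0.12, adjusted p = 2.42e-04) and Mmp17 (-0.56 ± 0.11, adjusted p = 0.00179) fell there at 3 h, Adam17 fell at 1 h (-0.34 ± 0.08, adjusted p = 0.00631), and Adam15 rose at 6 h (0.84 ± 0.13, adjusted p = 0.00396). In kidney at 3 h Mmp17 rose (0.45 ± 0.11, adjusted p = 0.00938) and Mmp16 (-0.38 ± 0.11, adjusted p = 0.0402) and Adam17 (-0.28 ± 0.07, adjusted p = 0.0186) fell. Mmp15 rose in liver at 3 h (0.58 ± 0.13, adjusted p = 0.00798) and Adam17 fell in blood at 3 h (-1.32 ± 0.38, adjusted p = 0.0398).

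Target lists of the transcription factors known to act on the CCN genes were counted next. Of 21 measured SRF and MRTF targets 4 rose and 0 fell in heart at 1 h, where 1.33% of genes were called. The median difference of the 21 was 0.36 against -0.001 over all genes. The 4 included the immediate early genes Fosb (2.89 ± 0.67, adjusted p = 0.0277), Egr1 (2.23 ± 0.54, adjusted p = 0.0355) and Junb (2.0 ± 0.47, adjusted p = 0.0309). Of all genes 3.12% and 6.39% were called in kidney at 1 and 3 h, and 5.8% and 11.6% in lung. In kidney 4 rose at 1 h, among them Fosb (3.27 ± 0.33, adjusted p = 5.59e-07), Egr1 (1.81 ± 0.47, adjusted p = 0.0323) and Srf (0.81 ± 0.14, adjusted p = 9.51e-04), and 5 at 3 h, with Fosb (1.77 ± 0.33, adjusted p = 0.00122) and the adhesion proteins Zyx (0.77 ± 0.16, adjusted p = 0.00275) and Vcl (0.57 ± 0.13, adjusted p = 0.00639). Vcl rose in kidney at 6 h as well (0.82 ± 0.16, adjusted p = 0.0141). In lung Fosb (3.14 ± 0.44, adjusted p = 4.81e-05) and Srf (0.55 ± 0.12, adjusted p = 0.00391) rose at 1 h, Junb (0.74 ± 0.22, adjusted p = 0.026) and Tagln (0.46 ± 0.13, adjusted p = 0.0228) at 3 h, and Actg2 at 6 h (1.09 ± 0.22, adjusted p = 0.0418).

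Of 19 measured YAP and TEAD targets 2 rose in heart at 1 h and 2 in kidney at 1 h, where 1.33% and 3.12% of genes were called. In heart these were Gadd45b (2.44 ± 0.37, adjusted p = 6.22e-04) and F3, tissue factor (1.22 ± 0.22, adjusted p = 0.00357), and in kidney Gadd45b (1.45 ± 0.18, adjusted p = 2.51e-05) and F3 (1.39 ± 0.23, adjusted p = 9.2e-04). In lung at 3 h 1 of the list rose and 5 fell, where 11.6% of genes were called. Among them were Ankrd1 (1.12 ± 0.27, adjusted p = 0.00763), Wwc1 (-1.16 ± 0.18, adjusted p = 9.79e-05) and Asap1 (-0.68 ± 0.19, adjusted p = 0.0219). Amotl2 fell (-0.84 ± 0.19, adjusted p = 0.0061) and Fjx1 rose (0.51 ± 0.09, adjusted p = 4.47e-04) in lung at 1 h, and Ajuba fell in kidney at 3 h (-0.38 ± 0.09, adjusted p = 0.00747).

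Of 17 measured TGF beta pathway genes 0 were called in heart at any time. Shares over all genes were 3.12% and 6.39% in kidney at 1 and 3 h, and 5.8% and 11.6% in lung. Tgif1 (0.90 ± 0.14, adjusted p = 5.1e-04) and Pmepa1 (0.41 ± 0.11, adjusted p = 0.0452) rose in kidney at 1 h, and Pmepa1 (0.56 ± 0.11, adjusted p = 0.00317) and Smad3 (0.37 ± 0.10, adjusted p = 0.0298) at 3 h. In lung the inhibitor Bambi fell at 1 h (-0.99 ± 0.15, adjusted p = 1.46e-04) and 3 h (-0.50 ± 0.15, adjusted p = 0.0321), Ski fell at 3 h (-0.33 ± 0.10, adjusted p = 0.0369) and Pmepa1 rose (0.47 ± 0.14, adjusted p = 0.031). Smad2 fell in liver at 3 h (-0.60 ± 0.16, adjusted p = 0.0277) and Tgif1 in blood at 3 h (-2.68 ± 0.51, adjusted p = 0.00733).

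Across the 20 differences of the solid tissues, each member was set against the 6714 genes brighter than the median gene, as a description in which points share air and phosphine rats. Ccn1 was most like Egr1 (Pearson r = 0.888), Otud1 (0.843) and Ier2 (0.824). Adamts4 was most like Gadd45b (0.828), Zfp36 (0.813) and S1pr1 (0.804), and Adamts1 like Cttnbp2nl (0.856), Alyref (0.824) and Enc1 (0.824). Adamts9 ran with Plat, the tissue plasminogen activator (0.861), Nup93 (0.838) and Cfl1l1 (0.785), and Ccn2 with Insig1 (0.837), Ifrd1 (0.83) and Jund (0.812). Timp1 ran with Ifitm1 (0.872), Plin2 (0.851) and Myd88 (0.816), and Timp3 with Eps8 (0.761), Ndrg1 (0.717) and Aldh1a1 (0.698). Among the members, Adamts1 and Adamts4 were the closest pair (0.78), then Adamts1 and Adamts9 (0.75) and Adamts4 and Ccn1 (0.73), while Timp1 and Timp3 had -0.34.

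Tissue identity and RNA quality were checked on the same arrays. The marker list of each solid organ was high in its own tissue, with array means of 11.54 to 12.46 for cardiomyocytes in heart, 11.97 to 12.44 for alveolar epithelium in lung and 10.63 to 10.99 for kidney tubule in kidney. A further check found 9 arrays, 7 of phosphine and 2 of air rats, that carried a marker list of another organ at least 4 log2 above the tissue median. The 3' minus 5' difference of the control transcripts for actin and GAPDH did not separate the groups in 22 of 23 comparisons, the exception being liver at 3 h (0.49 to 0.68 against 0.38 to 0.45). On GRCr8 the gene Timp1 overlaps Syn1, Timp3 overlaps Syn3 and Adamts9 overlaps 3 long noncoding genes. The files do not say whether the probe sets tell these apart.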

How the data were processed

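Rat RNA was measured on single-colour Affymetrix arrays after biotin labelling from the 3' end. The deposited values are log2 signals normalized by the authors with RMA in Partek, per the submitters' processing notes, and whether tissues were normalized together is not given in the sources used here. Their range was 1.74 to 14.13. Probe sets with 1 gene symbol (19063 of 31139; 572 had several and 11407 none, 97 were controls) were used, and a gene took its probe set with the highest mean, which gave 13438 genes. Per tissue, limma 3.58.1 in R 4.3.3 was fitted to all arrays with a mean per exposure and time, and p-values were Benjamini-Hochberg adjusted over all genes at 0.05. Tissues were compared in 1 fit of the solid tissues, with 1 spread per gene over all of them. Same-numbered arrays come from the same rat across tissues by the labels, and no rat is in both exposures. The genes of the list, the pathway lists and the markers were chosen with earlier results of these data known. All list members found on the array are named, and from the pathway lists called genes, at most 3 per list and comparison. On simulated data for heart at 1 h (13438 genes), 78% of genes changed by 1 and 96% of those changed by 2 log2 were recovered. For lung at 1 h the shares were 90% and 96%. Unchanged genes made up 5.43% of the calls for heart and 6.53% for lung. The simulation gave each gene 1 spread in all groups. Real groups can differ in spread, as Ccn1 in heart at 1 h (SD 1.09 in phosphine and 0.18 in air). Arrays give no read depth, and the number of rats limits the precision. Nothing says how far the rats of a group were handled apart. Alternatives were the probe set, dim genes, array weights, the control, the samples in the fit, arrays with another organ, and each rat left out. Promoter sequences are RefSeq's on GRCr8. Python 3.11.15, pandas 2.3.3 and matplotlib 3.10.9 were used for summaries and plots.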

Additional observations from a re-analysis of the deposited data

Results flagged for a closer look

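A difference between times was tested with limma's F and passed for Ccn2 in kidney (adjusted p = 0.00582), Adamts1 in lung (adjusted p = 0.00781) and Adamts9 in lung (adjusted p = 5.13e-04). A difference between the 5 solid tissues was tested at each time. It passed at 1 h for Adamts1 (adjusted p = 5.95e-05), Adamts4 (0.00575), Adamts9 (0.0192), Ccn1 (0.0027) and Ccn2 (0.0152). At 3 h it passed for Adamts1 (adjusted p = 5.82e-04), Adamts4 (0.006), Adamts9 (0.00996) and Timp1 (0.00429), and for Timp1 at 6 h (0.0114) and 24 h (0.00713).

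The heart effect minus the mean effect of the other 4 solid tissues was 1.025 for Adamts1, 1.523 for Adamts4 and 3.085 for Ccn1 at 1 h. At 3 h it was 1.321 for Adamts1, 1.39 for Adamts4, 2.208 for Ccn1 and 1.074 for Timp1. It was 1.154 for Adamts1 and 1.735 for Timp1 at 6 h, and 1.478 for Timp1 at 24 h. On paired values within each rat, Ccn1 at 1 h and Adamts1 at 3 h passed the test and the other 8 did not. The cause of these differences was not tested. The unpaired contrasts share 1 spread per gene over the solid tissues. No rat stood apart from its group by Dixon's test in the 43 groups tested, where chance alone flags about 1 in 20.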

How the results depend on the processing

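Of 359 counts of called members under another setting, 329 were within 1.5 times the main count and 30 were not. With air rats of all times pooled the counts were 5 for heart at 3 h, 2 at 6 h and 1 at 24 h, 2 for kidney at 3 h and 1 at 6 h (Ccn2, lower), 2 for liver at 1 h and 1 at 6 h (Adamts9, lower), 1 for lung at 6 h and 1 for brain at 1 h (Adamts1, lower). With array weights they were 6, 3 and 1 for heart at 3, 6 and 24 h, 3 for the heart effect over times and 2 for the lung effect at 3 h minus 1 h. Leaving out dim genes gave 1 for heart at 6 h and 1 over times. The mean of probe sets gave 1 for brain at 3 h, 2 for kidney at 3 h and 1 for heart minus other tissues at 6 h. The 2 groups alone gave 3 and 0 for heart at 1 and 3 h and 0 for kidney at 1 h. Leaving out arrays with another organ gave 5 and 1 for heart at 3 and 6 h and 1 over times. The second probe set gave 1 for lung at 6 h, and turned Adamts9 in lung to -0.19 at 1 h and -0.003 at 3 h. The cause was not tested.

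Paired within rats, a replicate block, the counts of heart minus other tissues were 1, 1, 0 and 0 at 1, 3, 6 and 24 h, against 3, 4, 2 and 1. With the rat as a random replicate block they stayed at 3, 4, 2 and 1. Phosphine against air within a tissue has no block, since no rat is in both.

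Leaving out 1 rat at a time moved 27 of 531 counts. They ranged from 2 to 5 for heart at 1 h (2 without Rat712 or Rat719, 3 without Rat720 or Rat721), 2 to 5 at 3 h (5 without Rat728), 0 to 1 at 6 h (1 without Rat760) and at 24 h (1 without Rat741), and 0 to 2 over times (2 without Rat728, 1 without Rat710). They ranged from 0 to 1 for brain over times (1 without Rat762) and for lung at 3 h minus 1 h (1 without Rat727 or Rat738). Between tissues they ranged from 2 to 5 at 1 h (2 without Rat719, 3 without Rat712), 1 to 5 at 3 h (1 without Rat730), 0 to 1 at 6 h (0 without Rat761, Rat762 or Rat763) and 0 to 2 at 24 h (0 without Rat749 or Rat750, 2 without Rat748). Heart minus other tissues ranged from 1 to 4 at 3 h (1 without Rat730) and 0 to 2 at 6 h (0 without Rat763). Of 755 alternative values of 42 single-gene results, 668 kept direction and call, 85 lost the call and 2 reversed.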
